A study of Mus musculus with 10 samples.

Results

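The 35 genes described here encode the enzymes and readers of DNA methylation, the histone deacetylases and sirtuins, and the core of the Polycomb repressive complex PRC2. They were chosen by gene name, and all 35 were among the 20080 genes tested. They comprise 5 DNA methyltransferases and their partners, 4 genes of active demethylation and repair, 4 methyl-CpG-binding domain proteins, 11 histone deacetylases (HDACs), 7 sirtuins and 4 PRC2 subunits. Each gene was measured as log2 of probe brightness relative to the 75th percentile of its own array, so 0 stands for a signal equal to that percentile. Levels of different genes come from different probes and were not set against each other.

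The arrays held hippocampal RNA of adult ICR offspring, an outbred mouse stock. Mothers of the 5 animals in the group labelled HE (high estradiol) received estradiol valerate by mouth, an ester from which estradiol is released. The dose was 100 µg/kg/day, dissolved in corn oil, starting at E5.5 and ending at E11.5 (embryonic days). Mothers of the 5 animals in the group labelled NC (control) received the same volume of corn oil. Treatment was given to the mother, and the labels do not say which animals shared a litter, so p-values measure only the spread between these animals.

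DNA methyltransferases add a methyl group to cytosine, chiefly where a cytosine is followed by a guanine (CpG). TET enzymes oxidise that mark, and the glycosylase Tdg cuts the oxidised bases out so that repair restores plain cytosine. Methyl-CpG-binding proteins recruit complexes that hold HDACs, which remove acetyl groups from histones and so favour a closed chromatin state. In the hippocampus this machinery is known for its part in memory formation, in which Hdac2 acts as a brake and Dnmt3a and the TET enzymes take part.

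Properties of the arrays bear on every value below. The 75th percentile signal lay between 898 and 1277, between 70.8% and 79.3% of probes were well above background, and no spot was saturated. The 10 arrays lay on 3 slides: NC 1 to NC 4 on slide 1, NC 5 with HE 1 and HE 2 on slide 2, and HE 3 to HE 5 on slide 3. Slide and group can be told apart on slide 2 alone. All animals are labelled male, but 7 arrays (NC 1 to NC 4 and HE 1 to HE 3) had a high signal for Xist, the RNA of the inactive X chromosome, from 3.21 to 4.45. On those 7 arrays the Y-linked gene Ddx3y lay between -9.31 and -5.51. The other 3 arrays had Xist between -7.25 and -4.51 and Ddx3y between 1.09 and 1.39.

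Other tissue markers also moved between the groups. Of 20 genes of thalamus and habenula, regions next to the hippocampus, 14 fell, and their summed linear signal relative to the 75th percentile was 67.5 to 144 on NC arrays and 29.0 to 65.7 on HE arrays. Tcf7l2 fell by 2.62 and Tnnt1 fell by 2.56. Of 18 myelin and oligodendrocyte genes 12 fell, with summed levels of 517 to 733 against 304 to 440, and Mbp fell by 0.61. Of 12 midbrain and hypothalamus genes 6 fell, with sums of 10.8 to 55.5 against 6.87 to 8.46, while Th and Ddc did not pass (-1.94 and -2.07). Of 12 liver plasma protein genes, a list that includes Ttr of the choroid plexus, 10 were tested and 5 fell, with overlapping sums of 1.65 to 19.1 against 0.488 to 13.8. Alb and Ahsg (-5.06 and -5.13) did not pass and were well above background on 4 NC and 2 HE arrays each. Genes of hippocampal pyramidal and granule neurons stood the other way: 3 of 15 rose, and the sums were 71.4 to 127 against 133 to 181. Of these, Prox1 and C1ql2, markers of granule cells, were well above background on all 10 arrays and did not pass (-0.89 and -0.09). Markers of dividing and immature cells, which carry much of the replication-linked methylation machinery, gave 0 of 15 calls with limma and 2 at an unadjusted p under 0.05. Their sums overlapped at 7.96 to 10.6 against 8.72 to 9.64, with Mki67 at 0.04 and Top2a at -0.13. In whole tissue, fewer cells of a type and less RNA per cell cannot be told apart, and the part of these marker genes in the results below was not tested.

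Of the 35 genes, 5 rose and 1 fell in HE at an adjusted p under 0.05 in limma. Tdg, Mbd3, Mbd2, Hdac2 and Sirt6 were higher, and Hdac10 was lower. Across all genes tested 6.48% rose, 13.9% fell and 20.4% passed in either direction, so the members' share of 17.1% was near the background. The members' median difference, HE minus NC, was -0.03 on the log2 scale, beside -0.06 for all genes. Their median absolute difference was 0.243 against 0.263 for all genes. No member changed by more than 1 log2 unit, whereas 1800 of the 20080 genes did. All 5 HE arrays lay above all 5 NC arrays for 3 members (Tdg, Mbd3, Hdac2) and below them for 1 (Hdac10), and the same was true of 5.57% and 11% of all genes. The other 29 members had differences between -0.45 and 0.46, and 4 of them (Dnmt3b, Mbd4, Sirt2, Sirt4) had an unadjusted p under 0.05. With the 6 calls this made 10 of 35, or 28.6%, against 36.9% of all genes.

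**Figure D1:**
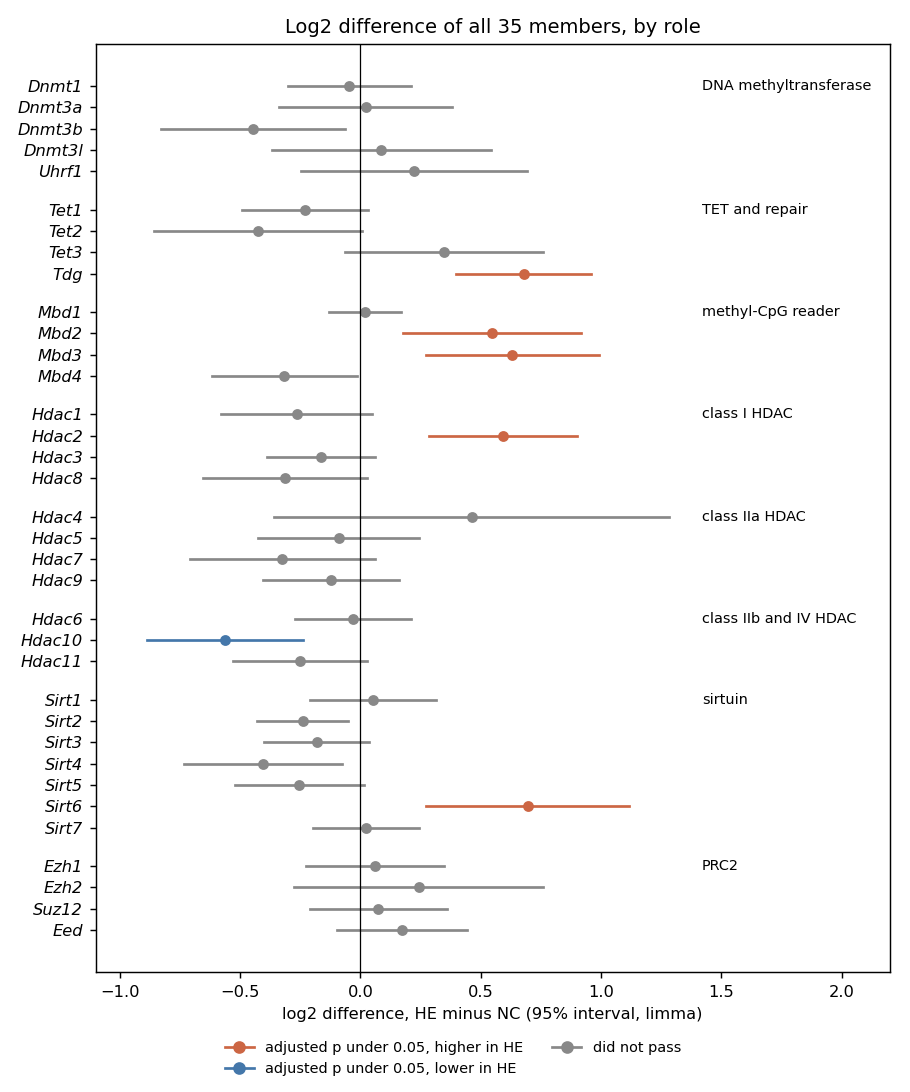
Log2 difference, HE minus NC, of each of the 35 genes with its 95% interval from limma, grouped by role, with orange (higher) and blue (lower) for genes that passed an adjusted p of 0.05. The 6 genes that passed lie between -0.56 and 0.70, and the intervals of most others cross 0.

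Sequence context is shown here for the called members, because 4 of the 5 genes that rose have an entry in the RefSeq promoter table (GRCm38.p6). For Tdg, Mbd3 and Hdac2, whose HE values all lay above their NC values, the 250 bases before the transcription start are printed in lower case, 5′ to 3′ on the gene's strand. Capitals mark matches, on either strand, to 5 motifs: the CCAAT box, the cAMP response element TGACGTCA, the E-box CACGTG, the GC box GGGCGG and the palindromic estrogen response element (GGTCA, then any 3 bases, then TGACC). None of these motifs contains another. The Tdg window is chr10:82629588-82629837 on the plus strand and holds 19 CpG. The Mbd3 window is chr10:80399532-80399781 on the minus strand and holds 14 CpG. The Hdac2 window is chr10:36974294-36974543 on the plus strand and holds 27 CpG.
Tdg: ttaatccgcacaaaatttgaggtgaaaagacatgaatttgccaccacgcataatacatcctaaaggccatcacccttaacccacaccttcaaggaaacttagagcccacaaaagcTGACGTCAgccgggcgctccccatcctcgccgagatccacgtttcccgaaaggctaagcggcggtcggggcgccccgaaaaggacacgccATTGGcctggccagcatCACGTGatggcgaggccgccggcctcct
Mbd3: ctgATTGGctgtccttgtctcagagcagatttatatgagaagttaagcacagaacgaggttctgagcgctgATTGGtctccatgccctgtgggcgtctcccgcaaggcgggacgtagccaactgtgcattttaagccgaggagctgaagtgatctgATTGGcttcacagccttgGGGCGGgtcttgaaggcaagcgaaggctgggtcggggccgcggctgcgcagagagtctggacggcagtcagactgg
Hdac2: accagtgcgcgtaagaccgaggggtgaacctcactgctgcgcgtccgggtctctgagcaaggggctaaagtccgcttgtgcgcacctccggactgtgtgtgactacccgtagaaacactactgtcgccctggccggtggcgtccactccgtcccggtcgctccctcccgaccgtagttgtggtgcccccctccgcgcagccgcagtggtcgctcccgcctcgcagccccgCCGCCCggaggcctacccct
The Tdg window holds TGACGTCA, CCAAT and CACGTG, the Mbd3 window holds CCAAT at 3 places and a GC box, and the Hdac2 window holds a GC box alone. TGACGTCA was found in 1 of the 43 windows of the 30 members with an entry, the Tdg window, and in 1.55% of the 32851 windows of all genes. CACGTG was in 9.30% of member windows and 6.02% of all, CCAAT in 41.9% and 33.8%, and GGGCGG in 60.5% and 32.7%. The estrogen response element was in 0 member windows and in 0.0639% of all. The member windows held a median of 15 CpG against 6 in all windows, and a GC content of 61.6% against 52.4%. Hdac1, Hdac3, Hdac10, Mbd1 and Mbd2 had no entry in the table. A match of letters describes the window and does not show that a factor binds there.

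Hdac2 and Hdac8 each have a pair of probes that differed in their result, so the probe that carries the change is printed for both, with that of Mbd3, whose only probe it is. Positions are those the array files give on mm9, and the sequences are 60 bases long in the sense of the transcript, with no capitals. The Hdac2 probe spans a junction at chr10:36713455-36713589 on the plus strand. The Mbd3 probe lies at chr10:79857864-79857923 and the Hdac8 probe at chrX:99700320-99700379, both on the minus strand.
Hdac2 probe: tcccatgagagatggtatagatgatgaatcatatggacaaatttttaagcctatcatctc
Mbd3 probe: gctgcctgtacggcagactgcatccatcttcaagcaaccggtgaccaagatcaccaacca
Hdac8 probe: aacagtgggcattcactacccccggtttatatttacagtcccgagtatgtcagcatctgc
All 3 come from the gene's coding sequence. Over all 35 genes the array carries 59 probes, of which 57 were bright enough to be tested.

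Tdg, the glycosylase that removes oxidised 5-methylcytosine, was the member with the lowest p. Its probe lies at chr10:82112989-82113048 on the plus strand (mm9). Its levels were -0.44, -0.84, -0.72, -0.75 and -1.14 on NC 1 to NC 5 and -0.17, -0.20, 0.04, -0.15 and -0.02 on HE 1 to HE 5. Every HE array lay above every NC array, and the HE values were the more tightly grouped. The means were -0.78 ± 0.25 (SD, n = 5) and -0.10 ± 0.10 (SD, n = 5). The difference of 0.68 (SE 0.13) is a 1.6-fold higher signal in HE, with an adjusted p of 0.0110 in limma. Another Tdg probe gave the same picture, from -1.93 to -1.55 on NC arrays and from -1.05 to -0.74 on HE arrays. Its difference was 0.75 (SE 0.11), with an adjusted p of 0.00562 in a fit over all probes, in which 23.2% of 30995 probes passed.

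The 3 TET enzymes, which make the oxidised bases that Tdg removes, did not pass the test. Tet2 had a difference of -0.43 (adjusted p = 0.140) and Tet1 one of -0.23 (adjusted p = 0.183), while Tet3 stood on the other side of 0 at 0.35 (adjusted p = 0.199). Tet2 levels were -1.47, -1.66, -2.05, -2.53 and -1.75 on NC arrays and -2.29, -2.25, -2.63, -2.33 and -2.09 on HE arrays. NC 4 lay among the HE values and the other 4 NC arrays above all of them. Of the 10 fits that left out an array, Tet2 passed only in the fit without NC 4 (-0.59, adjusted p = 0.0261). That widening follows from leaving out the array that overlapped. With normexp background correction, an alternative that models the local background, Tet2 fell by 0.71 (adjusted p = 0.0241) and Tet1 by 0.62 (adjusted p = 0.0398). But that setting also moved the median of all genes to -0.29, and 7105 of all 20080 genes fell under it. After centring on that median, Tet2 fell by 0.49 (adjusted p = 0.0344) and Tet3 rose by 0.58 (adjusted p = 0.0257), while Tet1 lost its call (-0.40, adjusted p = 0.0701). After centring, 3275 of all genes rose and 5603 fell.

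Among the DNA methyltransferases and their partners, 0 of 5 passed in limma and 1 had an unadjusted p under 0.05. For all genes these shares were 20.4% and 36.9%. Dnmt1, which copies methylation onto the new strand after replication, differed by -0.05 (95% interval -0.30 to 0.21). Dnmt3a, the main enzyme of new methylation in neurons, differed by 0.02 (95% interval -0.34 to 0.38). In this fit, which leaves slide out, neither interval reaches a 1.6-fold change of the size seen for Tdg. That bound holds for this fit alone. With slide as a fixed block the errors were larger, with Dnmt1 at 0.11 (SE 0.24) and Dnmt3a at 0.44 (SE 0.30). Uhrf1, which brings Dnmt1 to hemimethylated sites, differed by 0.22 (SE 0.21), and Dnmt3l, a cofactor without enzyme activity known from germ cells, by 0.09 (SE 0.21).

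Dnmt3b, an enzyme of new methylation best known from the early embryo, had the lowest p of this class. Its levels were -5.49, -5.75, -5.45, -5.54 and -5.27 on NC arrays and -6.02, -5.99, -6.43, -5.88 and -5.42 on HE arrays. HE 5 lay among the NC values and the other 4 HE arrays lay below all of them. The probe was dim, and 4 of the 5 HE arrays measured it well above background. The difference was -0.45 (SE 0.17, adjusted p = 0.0894). Of the 10 fits that left out an array, Dnmt3b passed only without HE 5, the array that overlapped (-0.58, adjusted p = 0.0314). With the high-Xist pattern as a covariate the difference was -0.53 (adjusted p = 0.0263). With normexp background correction it fell by 1.43 (adjusted p = 0.0340), and after centring on the median gene Dnmt3b fell by 1.21 (adjusted p = 0.0322) and Dnmt3a rose by 0.37 (adjusted p = 0.0436). Calls were common in that centred setting, where 3275 of all 20080 genes rose and 5603 fell.

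Of the 4 methyl-CpG-binding proteins, Mbd3 and Mbd2 rose. Both are alternative subunits of the NuRD complex, which joins a chromatin remodeller to Hdac1 and Hdac2; Mbd2 binds methylated DNA strongly and Mbd3 hardly. Mbd3 levels were -0.98, -0.60, -0.22, -0.08 and -0.51 on NC arrays and 0.20, 0.08, 0.35, 0.02 and 0.11 on HE arrays. All HE arrays were above all NC arrays, though NC 4 and HE 4 came close. The means were -0.48 ± 0.35 (SD, n = 5) and 0.15 ± 0.13 (SD, n = 5), a difference of 0.63 (SE 0.16), or 1.55-fold, with an adjusted p of 0.0258. Without NC 2, NC 5, HE 1 or HE 3 the call was lost, at differences between 0.58 and 0.63.

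Mbd2 levels were -0.48, -0.61, -0.06, -0.26 and -0.49 on NC arrays and 0.28, 0.01, 0.67, -0.16 and 0.05 on HE arrays. The groups overlapped, with HE 4 below NC 3. The difference was 0.55 (SE 0.17), or 1.46-fold, and the adjusted p of 0.0432 was the weakest of the 6 calls. It passed in 2 of the 10 fits that left out an array, those without NC 3 and without HE 4. Another Mbd2 probe differed by -0.09 (adjusted p = 0.774 over probes). Of the remaining readers, Mbd1 differed by 0.02 (SE 0.07), the smallest error of all members. Mbd4, which is itself a glycosylase for mismatched thymine, differed by -0.32 (adjusted p = 0.119). Of the 10 fits that left out an array, Mbd4 passed only without NC 4, which lay among the HE values (-0.42, adjusted p = 0.0296). With normexp centred on the median gene, Mbd4 fell by 0.44 (adjusted p = 0.0322) and Mbd1 rose by 0.38 (adjusted p = 0.0454). In that setting 3275 of all 20080 genes rose and 5603 fell.

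**Figure D2:**
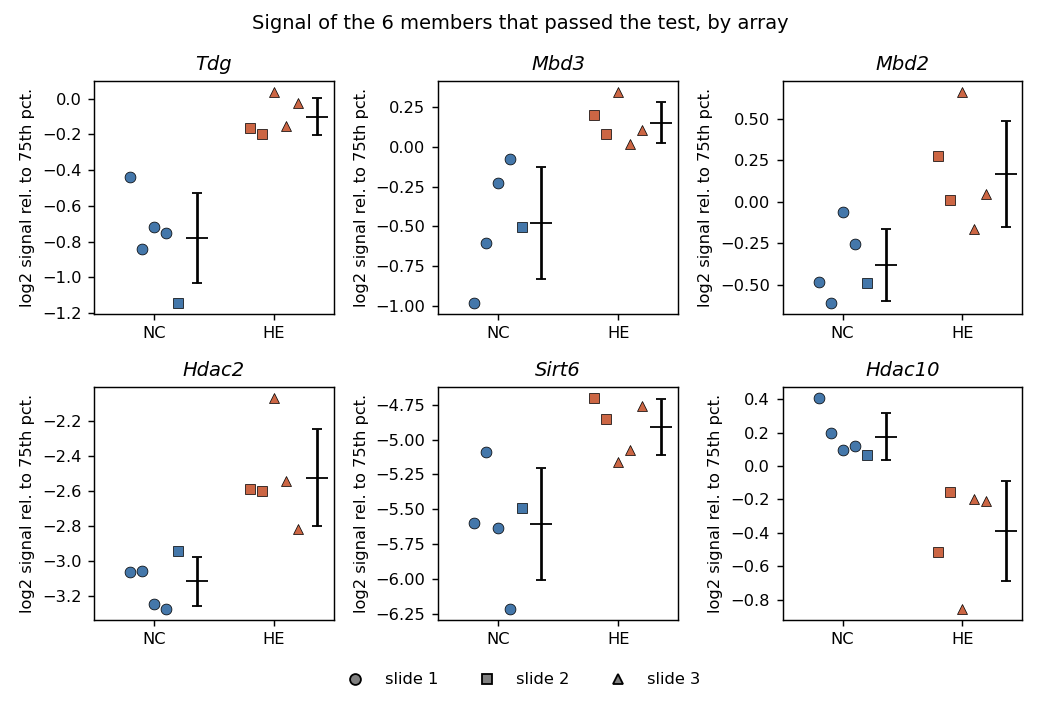
Level of the 6 genes that passed, as log2 relative to the array's 75th percentile, on each of the 5 NC and 5 HE arrays, with the group means and SD; point shapes mark the 3 slides. The HE points lie wholly above the NC points for Tdg, Mbd3 and Hdac2 and wholly below them for Hdac10, while Mbd2 and Sirt6 overlap.

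Among the class I HDACs, Hdac2 rose and the other 3 did not pass. Of this class, Hdac1 and Hdac2 are nuclear enzymes that act inside NuRD, Sin3 and CoREST complexes. Hdac2 levels were -3.06, -3.06, -3.25, -3.28 and -2.94 on NC arrays and -2.59, -2.60, -2.07, -2.55 and -2.82 on HE arrays. The groups were separated, with HE 5 closest to the NC arrays and HE 3 farthest. The means were -3.12 ± 0.14 (SD, n = 5) and -2.53 ± 0.28 (SD, n = 5), a difference of 0.59 (SE 0.14), or 1.51-fold, with an adjusted p of 0.0196. This value comes from the junction-spanning probe printed above.

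The other Hdac2 probe went the opposite way. Its levels were -4.29, -4.85, -4.99, -4.94 and -4.31 on NC arrays and -5.43, -4.87, -5.94, -5.37 and -4.94 on HE arrays. HE 2 and HE 5 lay among the NC values and the other 3 HE arrays lay below them. The difference was -0.64 (SE 0.23, adjusted p = 0.0689 over probes). The files assign it to another transcript record of the gene. The mean of both probes differed by -0.02, and with normexp background correction Hdac2 stood at -0.49, so the direction given for Hdac2 is that of 1 probe and turned with normexp. It also turned with slide and Xist together (-0.27). Quantile normalization left it higher, at 0.77 (adjusted p = 0.0100).

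Hdac8, a class I enzyme that works outside those complexes and deacetylates cohesin, had a representative probe with a difference of -0.31 (SE 0.15, adjusted p = 0.165). The Hdac8 probe printed above read -2.84, -3.04, -3.10, -3.01 and -2.62 on NC arrays and -3.57, -3.38, -3.64, -3.54 and -3.54 on HE arrays. All of its HE values lay below all NC values, and it fell by 0.61 (SE 0.11, adjusted p = 0.00882 over probes). With the mean of both probes Hdac8 fell by 0.46 (adjusted p = 0.0170), and with normexp by 0.75 (adjusted p = 0.0182). Hdac3, the enzyme of the NCoR complex, differed by -0.16 (SE 0.10), from a 60-base probe whose given position covers only 23 bases. Hdac1, the paralog of Hdac2, differed by -0.27 (SE 0.14, adjusted p = 0.199), but the files place its only probe on chromosome 17, whereas the gene lies on chromosome 4, so that value is uncertain.

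**Figure D3:**
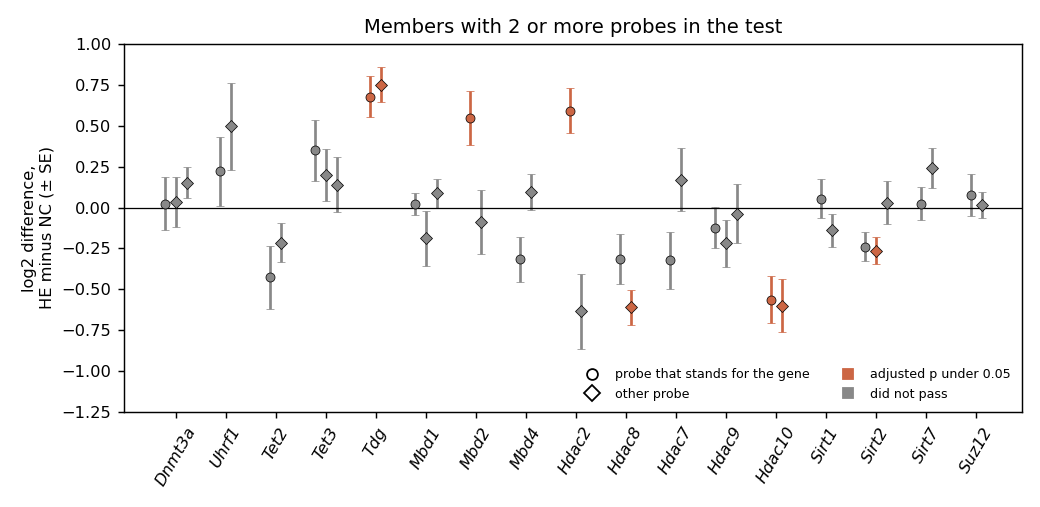
Log2 difference, HE minus NC, with its SE for every tested probe of the genes with several probes. The probes of Tdg, Hdac10 and Hdac8 lie on the same side of 0, whereas those of Hdac2 lie at 0.59 and -0.64.

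Of the 17 members with several tested probes, 10 had probes of the same sign and 7 did not (Hdac2, Hdac7, Mbd1, Mbd2, Mbd4, Sirt1, Sirt2). In the fit over probes, 6 member probes rose and 4 fell. These were 10 of the 57 tested, beside 23.2% of all 30995 probes.

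The class IIa HDACs, which shuttle between nucleus and cytoplasm in neurons and bind the MEF2 factors, gave 0 of 4 calls in limma and 0 at an unadjusted p under 0.05. Beside them, 20.4% of all genes were called and 36.9% reached that unadjusted level. Hdac7 had the lowest p among them. Its levels were -0.07, -0.18, -0.54, -0.21 and -0.11 on NC arrays and -0.56, -0.50, -1.14, -0.30 and -0.23 on HE arrays, and NC 3 lay among the HE values. The difference was -0.32 (SE 0.17, adjusted p = 0.202). Hdac5 differed by -0.09 (SE 0.15) and Hdac9 by -0.12 (SE 0.13).

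Hdac4 had the largest error of all members, set by a single array. Its levels were 1.37, 0.93, 0.70, 1.25 and -0.84 on NC arrays and 1.36, 1.32, 0.94, 1.14 and 0.97 on HE arrays. NC 5 lay below every other array, and the other 9 overlapped. The difference was 0.46 (SE 0.37, adjusted p = 0.392), and 0.08 without NC 5.

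Hdac10, a cytoplasmic class IIb enzyme that deacetylates polyamines, was the only member that fell in the gene fit. Its levels were 0.41, 0.19, 0.09, 0.12 and 0.07 on NC arrays and -0.51, -0.16, -0.86, -0.20 and -0.21 on HE arrays. Every NC array lay above 0 and every HE array below it. The means were 0.18 ± 0.14 (SD, n = 5) and -0.39 ± 0.30 (SD, n = 5). Hdac10 fell by 0.56 (SE 0.15), so that NC was 1.48-fold higher, with an adjusted p of 0.0261. Its other probe also separated the groups and fell by 0.60 (SE 0.16, adjusted p = 0.0271 over probes). The call was lost without NC 2 (a difference of -0.56) and without HE 1 (-0.53). Hdac6, the tubulin deacetylase of the same class, differed by -0.03 (SE 0.11), and Hdac11, the sole class IV enzyme, by -0.25 (SE 0.12, adjusted p = 0.172). Over all 11 HDACs, 9 differences lay below 0 and the median was -0.16, with 1 call in each direction. Among all 20080 genes 11247 lay below 0 and the median was -0.06. The share called was 18.2% of the HDACs and 20.4% of all genes. The 9 include Hdac1, whose probe is uncertain, and Hdac2 lies above 0 by only 1 of its probes.

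Among the sirtuins, deacylases that use NAD, Sirt6 rose and the other 6 did not pass. Sirt6 sits on chromatin and deacetylates histone H3. Its levels were -5.60, -5.09, -5.63, -6.21 and -5.49 on NC arrays and -4.70, -4.85, -5.16, -5.07 and -4.76 on HE arrays. NC 2 overlapped the HE values and the other 4 NC arrays lay below them. The difference was 0.70 (SE 0.19), or 1.62-fold, with an adjusted p of 0.0311. The probe was dim, with 3 of 5 NC arrays well above background. It is 60 bases long, but the position given for it covers only 15 bases. With normexp background correction the difference turned to -1.11, and after centring to -0.89. The call was also lost without NC 3, NC 5, HE 1, HE 2 or HE 5, at differences between 0.64 and 0.73.

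Sirt2, a tubulin deacetylase abundant in oligodendrocytes, had 3 probes. Its representative probe read 3.47, 3.60, 3.74, 3.75 and 3.72 on NC arrays and 3.44, 3.53, 3.37, 3.42 and 3.32 on HE arrays. HE 2 lay among the NC values, and the other 4 HE arrays lay below them. The difference was -0.24 (SE 0.08, adjusted p = 0.0709), and it passed with quantile normalization at -0.28 (adjusted p = 0.0493). Of the 10 fits that left out an array, it passed only without NC 1, the lowest NC array (-0.29, adjusted p = 0.0364). Its other probes differed by -0.26 (adjusted p = 0.0429 over probes, groups separated) and by 0.03 (adjusted p = 0.894). The myelin list, whose sums are given above, was lower on the same HE arrays, and its part in the Sirt2 value was not tested.

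The mitochondrial sirtuins differed by -0.18 for Sirt3, -0.41 for Sirt4 and -0.25 for Sirt5, and none passed (adjusted p = 0.209, 0.0774 and 0.154). Of the 10 fits that left out an array, Sirt4 passed only without NC 4, the lowest NC array (-0.48, adjusted p = 0.0442). Sirt3 is the main deacetylase of mitochondria, and Sirt5 removes succinyl groups. Nuclear Sirt1 differed by 0.05 (SE 0.12) and nucleolar Sirt7 by 0.02 (SE 0.10).

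The 4 PRC2 genes, whose complex methylates histone H3 at lysine K27, all had differences above 0 but gave 0 calls in limma and 0 at an unadjusted p under 0.05. Of all 20080 genes 8833 lay above 0, 20.4% were called and 36.9% had an unadjusted p under 0.05. Ezh2 and Ezh1, the alternative catalytic subunits, differed by 0.24 (SE 0.23) and 0.06 (SE 0.13), and the scaffold subunit Suz12 by 0.08 (SE 0.13). Eed, the subunit that reads the mark, was -2.05, -2.09, -1.56, -1.79 and -1.82 on NC arrays and -1.62, -1.69, -1.50, -1.89 and -1.77 on HE arrays. The groups overlapped, and the difference was 0.17 (SE 0.12, adjusted p = 0.330).

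Slide 2, the slide that held both groups, gave the same directions for the 6 calls but not the calls. Its NC array, NC 5, had low Xist, whereas HE 1 and HE 2 had high Xist. Group and Xist pattern therefore cannot be told apart within slide 2. With slide as a fixed block, a fit in which slide 2 alone informs the difference, Tdg stood at 0.96 (adjusted p = 0.0583), Mbd3 at 0.65 (0.294), Mbd2 at 0.63 (0.310), Hdac2 at 0.35 (0.476), Sirt6 at 0.71 (0.303) and Hdac10 at -0.40 (0.448). Under that block 1.02% of all genes passed. Hdac4 was the only member to pass there, at 2.18 (SE 0.27, adjusted p = 0.0276), and its value rests on NC 5, the only NC array of slide 2. On slide 2 HE 1 and HE 2 exceeded NC 5 in Tdg by 0.98 and 0.95.

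The Xist pattern was also unequal between the groups. The NC arrays with high Xist all lay on slide 1, and the HE arrays with high Xist on slides 2 and 3. Slide and group therefore cannot be told apart among the high-Xist arrays. On the 4 NC and 3 HE arrays with high Xist alone, 0.383% of all genes passed in limma and no member did. There 9 members had an unadjusted p under 0.05. The share of all genes at that unadjusted level is not reported for these arrays, and it was 36.9% in the fit on all 10 arrays. The 6 genes kept their sides: Tdg stood at 0.58, Mbd3 at 0.68, Mbd2 at 0.67, Hdac2 at 0.74, Sirt6 at 0.73 and Hdac10 at -0.71, with adjusted p between 0.0787 and 0.143. Midbrain and hypothalamus genes were highest on NC 2 and NC 4 and the liver genes Alb and Ahsg on NC 1, NC 2 and NC 4. Leaving out those 3 arrays kept only NC 3 and NC 5 as controls, which differ in slide and in Xist pattern. NC 3 also had the highest summed myelin and liver signal of all arrays. In that fit 9.57% of all genes passed, Tdg (0.83, adjusted p = 0.0306) and Sirt6 (0.65, adjusted p = 0.0487) rose, and Hdac8 fell by 0.47 (adjusted p = 0.0459). The other 4 kept their sides without passing, at 0.52 for Mbd3, 0.44 for Mbd2, 0.57 for Hdac2 and -0.47 for Hdac10.

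**Figure D4:**
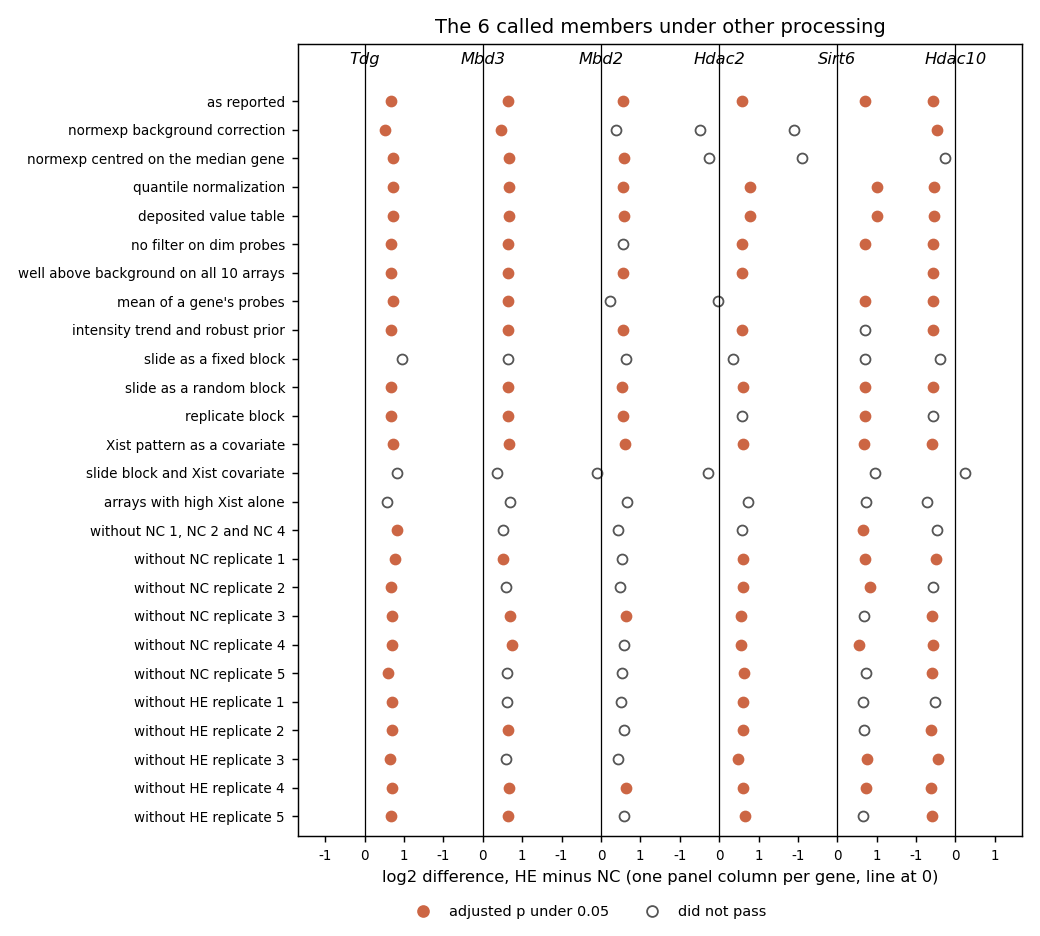
Log2 difference, HE minus NC, of the 6 genes that passed, as reported and under each alternative setting, 1 point per setting, filled where the adjusted p was under 0.05. Tdg stays between 0.51 and 0.96, whereas some points of Mbd2, Hdac2, Sirt6 and Hdac10 cross 0.

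Of 71 further genes that work beside these enzymes, such as NuRD, Sin3 and CoREST subunits, acetyltransferases and enzymes of NAD supply, 8 rose and 5 fell. Their share of 18.3% called stands beside the 20.4% of all genes. Of the 9 NuRD subunits among them, Rbbp7 (0.37, adjusted p = 0.0198) and Mta2 (0.38, adjusted p = 0.0427) rose. The other 7 did not pass and ran from -0.34 (Gatad2a) to 0.37 (Mta1), with 5 above 0 and 2 below. Rbbp4, the close relative of Rbbp7, was at -0.18 with its HE arrays all below its NC arrays (adjusted p = 0.0728). The CoREST subunit Rcor2 (0.86), the PRC2 accessory subunit Aebp2 (0.51) and the uracil glycosylase Smug1 (0.59) rose too.

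Cbx6 and Epop were among the partners that rose with the lowest p. Cbx6, a Polycomb reader, rose by 0.64 (SE 0.14, adjusted p = 0.0161). Epop, a PRC2-associated protein, rose by 1.39 (SE 0.32, adjusted p = 0.0196). All 5 HE arrays lay above all 5 NC arrays for both. For Epop the margin was narrow, with 3.22 on NC 1 and 3.23 on HE 3.

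Among those that fell, Kat2b, a histone acetyltransferase, moved the most. Its levels were -0.52, -0.71, -1.01, -1.04 and -0.74 on NC arrays and -2.0, -1.88, -2.33, -2.07 and -2.08 on HE arrays. The groups lay far apart, and Kat2b fell by 1.27 (SE 0.13, adjusted p = 0.00209). Idh1, which makes the 2-oxoglutarate that TET enzymes need, fell by 0.51 (SE 0.11, adjusted p = 0.0172). Nampt, the rate-limiting enzyme of NAD salvage and so a supplier of the sirtuins, fell by 0.37 (SE 0.09, adjusted p = 0.0230). It passed in 13 of 25 alternatives and lost the call without NC 2, NC 5, HE 1 or HE 5. Its difference was -0.20 with normexp, -0.12 as the mean of its probes and 0.02 with normexp centred. Nmnat1, the next enzyme of that route in the nucleus, fell by 0.33. Its relatives Nmnat2 (0.25, adjusted p = 0.201) and Nmnat3 (0.80, adjusted p = 0.103) stood above 0 and did not pass. Zbtb4, a reader of methylated CpG, fell by 0.32. No partner passed with slide as a block, where 1.02% of all genes did. In that limma fit 15 partners had an unadjusted p under 0.05, and the share of all genes at that level is not reported.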

How the data were processed

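RNA of 10 hippocampi was hybridised to 1-colour Agilent arrays. The deposited scanner files hold probe intensity as processed by the authors in Agilent's Feature Extraction software, version 10.7 (the submitters' processing notes), and the deposited value table holds log2 values whose scaling is not stated. Processed intensity was scaled to each array's 75th percentile and log2 transformed. Control and outlier spots were left out, and a probe had to be well above background on 3 of 5 arrays of a group. The brightest such probe stood for a gene. The groups were compared with limma 3.58.1 (R 4.3.3) over 20080 genes, with Benjamini-Hochberg adjustment at 0.05. In simulated data of independent genes without slides, 64.2% of genes changed by 1 log2 unit were recovered, and 11.9% at 0.5. The simulation changed few genes and gave 117 calls, against 4092 in the data, so its shares do not carry over to the members. Genes named are all 35, with full values for those called, for the lowest p of each class without a call, and for those whose probes disagree in sign with a call among them. Partners named in full are the 3 with the lowest p in each direction, and marker lists are shown by their first 2 genes; some of these are not reported here. Hdac4, Hdac8, Tet2 and the remaining called partners were added after their values were seen. Members and lists were chosen with earlier results of these data known. Other background corrections, scalings, filters, probe rules, blocks, covariates and left-out arrays were tried.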

Additional observations from a re-analysis of the deposited data

Results flagged for a closer look

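A single array stood far from the other 4 of its group in 6 of 140 groups of values examined, and chance gives such a gap in about 1 of 20 groups. Mbd1 read 1.176 on NC 4 against 1.083 to 1.105 on the other NC arrays. Sirt4 read -1.071 on HE 3 against -0.668 to -0.510. Nampt read 1.879 on HE 4 against 1.648 to 1.706. The summed myelin markers reached 732.520 on NC 3 against 517 to 557, and the summed liver markers reached 19.061 on NC 3 against 1.65 to 6.03. Xist read -4.511 on NC 5 against 3.76 to 4.45.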

How the results depend on the processing

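Tdg passed in 22 of 25 alternatives, Mbd3 and Hdac2 in 17, Hdac10 in 17, Sirt6 in 13 of 24 and Mbd2 in 10. The direction turned for Mbd2 with slide and Xist together (-0.092), and for Hdac10 there (0.25). Hdac2 turned with normexp (-0.49), normexp centred on the median gene (-0.27), the mean of its probes (-0.021) and slide with Xist (-0.27). Sirt6 turned with normexp (-1.11) and normexp centred (-0.89), and Nampt with normexp centred (0.019). The cause was not tested.

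Members that rose, 5 as reported, numbered 2 with normexp, 3 with the mean of probes, 1 with slide as a fixed block, 0 with slide and Xist, 0 on high-Xist arrays and 2 without NC 1, NC 2 and NC 4. Members that fell, 1 as reported, numbered 6 with normexp, 4 with normexp centred, 2 with each of quantile normalization, the value table, the mean of probes, the intensity trend and the Xist covariate, 3 with every probe by itself, and 0 with each of the slide block, the replicate block, slide with Xist, and high-Xist arrays. Among all 20080 genes, 1787 rose and 7105 fell with normexp, and 3275 rose and 5603 fell with normexp centred. With slide and Xist in limma, 1 gene rose and 2 fell among all, and 2 members had an unadjusted p under 0.05. The share of all genes at that unadjusted level is not reported. Partners that rose, 8 as reported, numbered 13 with normexp, 26 with normexp centred, 13 over probes, 3 without NC 1, NC 2 and NC 4, and 0 with the slide block, slide with Xist, and high-Xist arrays. Partners that fell, 5 as reported, numbered 3 with normexp centred, 3 with the mean of probes, 12 over probes, 2 with the replicate block, 2 without NC 1, NC 2 and NC 4, and 0 in the same 3 settings. Leaving out each array in turn gave 2 to 5 members higher, 0 to 4 lower, 3 to 10 partners higher and 2 to 5 lower. The calls among all 20080 genes varied too in these fits, from 567 to 1412 higher and from 1415 to 2815 lower.

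Same-numbered arrays deviated together with correlations from -0.08 to 0.13, so no pairing by number was seen. The correlations cannot exclude a pairing, because same-numbered arrays lay on different slides. With the replicate number as a block 4 members rose and 0 fell, and 722 genes rose and 2312 fell among all. Of all calls 31.8% were higher as reported, 44.2% with quantile normalization, 44.6% with the value table, 20.1% with normexp and 36.9% with normexp centred. The median of all genes moved to -0.16 without a filter and to -0.14 with the slide block. Dim probes such as those of Sirt6 and Dnmt3b are limited by signal over background.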

Other observations

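Of the 7 members on chromosome 10, 4 rose (Hdac2, Mbd3, Sirt6 and Tdg), while 7.99% of the 763 tested genes on that chromosome did. This grouping by position was seen after the calls were known and was not tested.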
